A study of Drosophila melanogaster with 12 samples.

Results

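The ribosome-bound RNA of oenocytes from young, unstressed female flies is described here, as the abundance of each locus in 1 group of a RiboTag RNA-seq series. The group, H2O-Young, holds 3 of the 12 libraries. The authors' deposited table gives 1 pooled value per locus for it, as FPKM (fragments scaled by transcript length in kilobases and by the mapped fragments of the libraries). Of the 16191 loci in the table, 16138 carried a usable value. The other 53 were listed at 0. They carried the mark of Cuffdiff for loci with too many fragments to compute, in at least 1 comparison with another group. Every usable locus was taken, was ranked by FPKM and was read through gene families, complexes and marker lists.

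The flies carried PromE-Gal4 and UAS-RpL13A-FLAG, so that oenocytes expressed a FLAG-tagged copy of the ribosomal protein RpL13A and tagged ribosomes were pulled down from a whole-fly lysate with an anti-FLAG antibody. The females had been allowed to mate, and they spent the last 24 h on food with water put on its surface, as the control for paraquat, a herbicide that generates superoxide. The sample labels give their age as 14 days after eclosion, whereas the methods state 10 days. All 4 groups of the series share this genotype. The driver, also known as Desat1-GAL4.E800 and built on the promoter of Desat1, decides which cells carry the tag. Whole flies were pooled for each replicate, frozen and ground. Poly(A) RNA was selected from the pulled-down RNA, and single-end reads came from a directional kit.

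Oenocytes are large secretory cells under the cuticle of the abdomen and have been compared with hepatocytes. They make the cuticular hydrocarbons that keep water in the fly and serve as contact pheromones. In that route a fatty acid is built by acetyl-CoA carboxylase and fatty acid synthase, is desaturated, is lengthened in 4-step rounds on the endoplasmic reticulum, is reduced to an aldehyde by a fatty acyl-CoA reductase, and is cut to a hydrocarbon by the P450 enzyme Cyp4g1 with its electron donor Cpr. A ribosome pulldown reads mRNA that ribosomes hold, which is closer to protein synthesis than total mRNA.

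Because the 3 libraries were merged into 1 value by the authors, no SD, interval or test can be given for any locus, and the depth per library is unknown from the table. In the principal component analysis of the paper, 1 H2O-Young library did not cluster with its replicates. The pooled values include that library, and its part in them was not tested. FPKM is scaled by transcript length, so values of different genes can be set beside each other on that scale. An abundance in a pulldown from many cells does not separate the number of cells from the RNA in each. Reads from overlapping genes can be mixed, since the strand setting of the counting is not given in the sources used here, and 667 loci carry at least 2 gene symbols that share 1 value. Such loci are called shared.

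In all, 9326 loci had an FPKM of at least 1, which is 57.8% of those with a usable value, and of these 8876 were protein-coding. At least 100 was reached by 1610 loci, at least 1000 by 307 and at least 10000 by 18. The median was 2.47 over all usable loci and 5.31 over the protein-coding ones. The distribution was steep at its top. The 10 highest loci held 13.3% of the summed FPKM of 1693462, the 100 highest held 46.0%, and 122 loci held 50% of it. The locus at rank 100 had an FPKM of 3322 and that at rank 1000 had 192. Loci listed at 0 without the mark numbered 3544, and for these the table gives no floor.

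**Figure D1:**
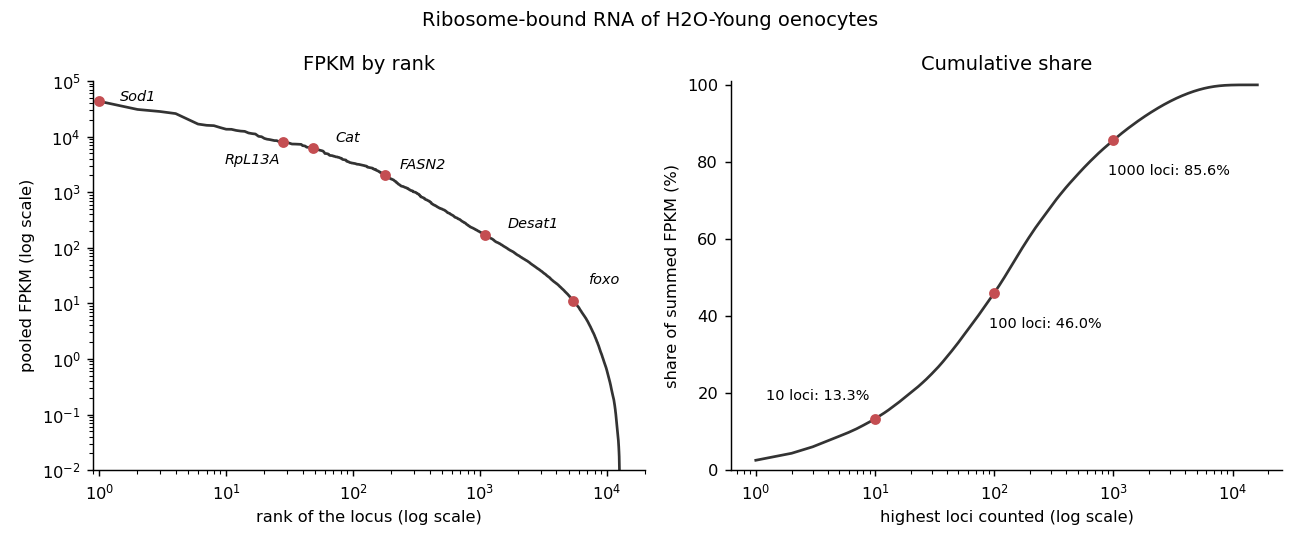
The left panel plots the pooled FPKM of each locus of H2O-Young against its rank, both on log axes, with 6 named loci as points, and the right panel plots the cumulative share of the summed FPKM in percent against the number of loci counted, on a log axis. Sod1 stands first with 43243, foxo lies at 11.3, and the 10, 100 and 1000 highest loci hold 13.3%, 46.0% and 85.6% of the sum.

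The most abundant ribosome-bound RNA was that of Sod1 (FBgn0003462), the copper-zinc superoxide dismutase of the cytosol, with an FPKM of 43243. Sod1 lies on chromosome 3L of dm6 from 11112281 to 11113740. Mgstl, a microsomal glutathione S-transferase on chromosome X, followed with 30828. The RNA of Sod1 was 1.4 times as abundant as that of Mgstl on the FPKM scale. The first ranks were thus held by a superoxide-removing enzyme and by an enzyme that conjugates electrophiles to glutathione, in flies that had received no oxidant.

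Lipid enzymes came next. CG30008, an elongase of very long chain fatty acids on chromosome 2R from 9889878 to 9891141, had an FPKM of 28309. Acbp2, which binds acyl-CoA esters in the cytosol and is encoded on chromosome 3L from 7131863 to 7133463, had 25961. CG9458, another elongase, had 20395. These were followed by a pair of desaturases. CG15531, on chromosome 3R from 30194790 to 30196228, had 16827, and Fad2, the female desaturase that introduces the further double bond of dienes, had 15747. Between them stood Prosalpha2, a subunit of the proteasome core, with 15986. The tenth place was held by a noncoding locus, lncRNA:CR43196, with 13579.7, just after Yp2, a yolk protein, with 14515.

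Of the 30 highest loci, 8 belonged to hydrocarbon synthesis, 7 to the proteasome, 5 to the cytosolic ribosome and 2 to the antioxidant enzymes. The ribosomal proteins among them were RpL23 with 11324, sta (the small-subunit protein RpSA) with 8675, RpL39 with 8484, RpL29 with 8470.4 and RpL13A. RpL13A lies on 3R from 5624474 to 5625947, and its locus, shared with a pair of intronic snoRNAs, had 8001. Reads of the transgene and of the endogenous gene are counted together there. It stood at rank 28, below 3 other proteins of the large subunit, so the tagged gene did not stand apart from the ribosomal proteins around it.

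A further 7 of the 30, Yp2 and lncRNA:CR43196 among them, belonged to no family list. CG7910 had 12581, and the shared locus of CG6432 and Dis3 had 11137, a value that cannot be split between these genes. CG12321 had 7942. CG43630 and CG45080 had 9281 and 8136, and their longest annotated transcripts measure 251 and 280 nucleotides. FPKM divides by length, so each fragment raises the value more for transcripts this short than for long ones. Among the 100 highest loci, 41 were cytosolic ribosomal proteins, 14 were proteasome subunits and 12 were hydrocarbon synthesis genes. By the lists, 5 were antioxidant enzymes and 3 were subunits of oxidative phosphorylation. The latter list leaves out levy, a complex IV subunit at rank 57 with 5560. CG11899, at rank 98 with 3341, was in none of these groups.

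**Figure D2:**
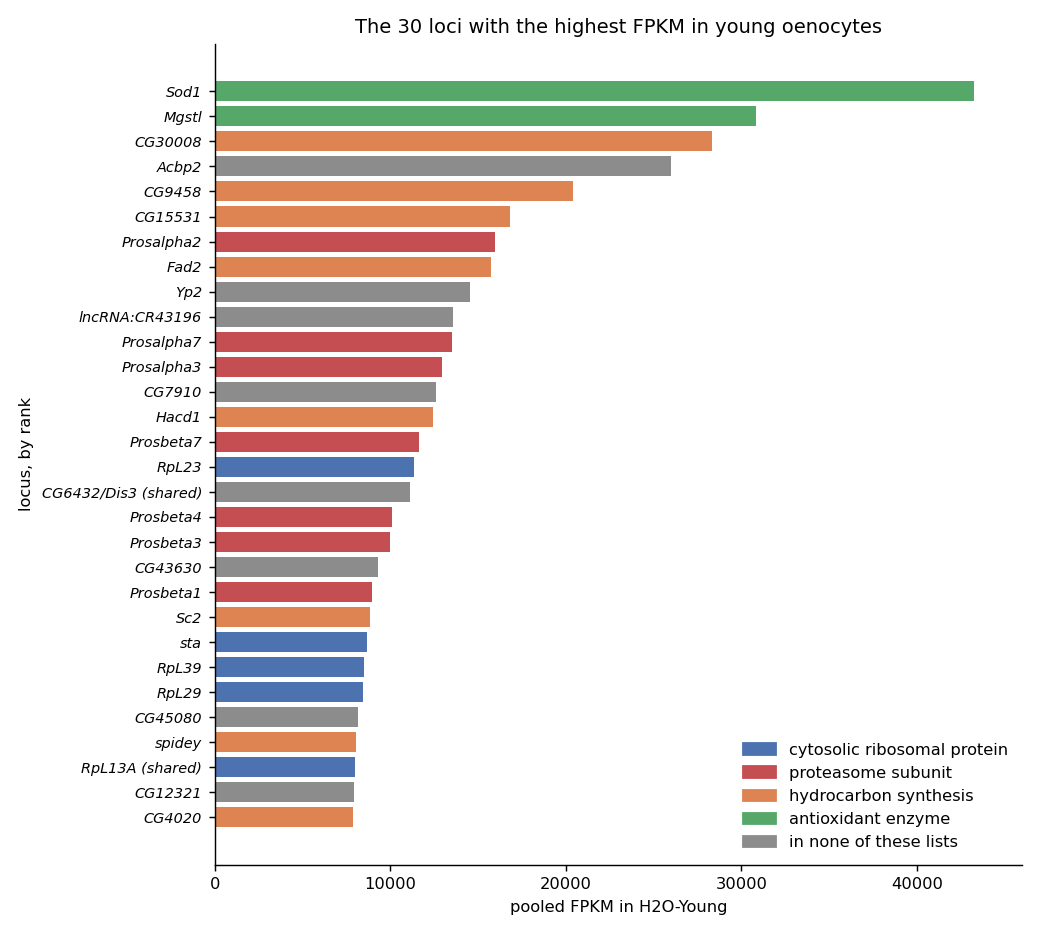
Bars give the pooled FPKM of H2O-Young, on a linear axis from 0, for the 30 highest loci in rank order, with colours for 4 gene groups and grey for loci in none of them. Sod1 and Mgstl lead with 43243 and 30828, 8 bars belong to hydrocarbon synthesis, and CG4020 closes the row with 7898.

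Hydrocarbon synthesis made up 9.42% of the summed FPKM. The joined list holds 57 loci, of which 1 is missing, 50 reached an FPKM of at least 1 and 21 reached at least 1000. Its median was 87.6, against 5.31 over all protein-coding loci. Without the 10 highest loci of the table its share of the rest was 5.33%. Among its desaturases, elongases and reductases a few members were abundant and the rest were low.

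At the entry of the route FASN2, the fatty acid synthase of oenocytes, had 2038, and FASN3, also known from these cells, had 694. FASN1, the synthase of the fat body, which lies 454 bases beyond the end of FASN2 on chromosome 2L, had 53.6. The RNA of FASN2 was thus 38.0 times as abundant as that of its neighbour. ACC, acetyl-CoA carboxylase, had 323, ATPCL, the ATP citrate lyase, had 235, and AcCoAS, the acetyl-CoA synthetase, had 213. All 6 loci of this step reached an FPKM of at least 1, and their median was 279.

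The 8 desaturases split into a pair above 10000, CG15531 and Fad2, and 6 members far below. Desat1, whose promoter drives the Gal4 line and which places the first double bond, had 172 at a locus shared with vrs. CG15531 was 97.7 times and Fad2 91.5 times as abundant as Desat1. Desat2, the desaturase of an African pheromone form, had 54.1, ifc, a sphingolipid desaturase, had 35.8, and CG9743, which lies 131 bases beyond CG15531, had 21.1.

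Of 20 elongases 8 reached an FPKM of at least 1000, 8 lay between 0.511 for sit and 25.2 for Elovl7, and Elo68alpha and Elo68beta were listed at 0. After CG30008 and CG9458 came eloF with 7317, the female elongase of the long dienes, CG16904 with 5262, CG18609 with 2756 and CG6660 with 2592. The median of the family was only 32.4. Abundance was thus carried by a subset of the elongases and not by the family at large.

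Several of the abundant elongases are neighbours. On chromosome 3R from 9812747 to 9819877 of dm6, 5 elongase genes lie within 7.13 kb, in the order CG8534, eloF, CG16904, CG9459 and CG9458. The first of them are on the plus strand and the last 3 on the minus strand, and each has 2 exons. Their values were 121 for CG8534, 7317 for eloF, 5262 for CG16904, 1354 for CG9459 and 20395 for CG9458. All of them passed 100, although the highest was 169 times the lowest. The lowest, CG8534, is overlapped on the opposite strand by asRNA:CR44035 with 249, and reads of this pair may be mixed. The next coding genes outside the stretch, FBXO11 on one side with 9.75 and CG42857 on the other with 1.95, were low. CG9459, CG8534, asRNA:CR44035 and these flanking genes were chosen after their values were seen. By contrast, a second group of 4 elongases on 3R, within 48.2 kb, held CG5326 with 7.52, bond with 14.5, sit with 0.511 and CG33110 with 3.25, which were also chosen after their values were seen.

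The enzymes that share the 4-step round with the elongases were abundant as a set. Hacd1, the 3-hydroxyacyl-CoA dehydratase, had 12425, and its paralogue Hacd2 had 30.4. Sc2, the trans-2-enoyl-CoA reductase, had 8849, and spidey, the 3-ketoacyl-CoA reductase, had 8060.2. Cyt-b5, cytochrome b5, which feeds electrons to desaturases, had 3424 at a locus shared with Gpo2. Each step of the round, with CG30008 and CG9458 for the condensing step, thus had a gene among the 30 highest loci.

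Among 15 fatty acyl-CoA reductases 5 reached at least 1000. CG4020 led with 7898, FarO, an oenocyte reductase, had 3044 at a locus shared with an antisense RNA, CG17560 had 2106 at a locus shared with mir-2494, CG17562 had 1727 and Sgp had 1714. CG10097, at a locus shared with CG10096, had 623. CG17562 and CG17560 are neighbours on 3R, 795 bases apart, and their values lay within 1.22 times of each other. The next member, CG14893 with 54.3, lies beside CG17560 and was named after its value was seen.

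The last enzyme of the route could not be read from the deposited table. Cyp4g1, the decarbonylase that releases hydrocarbons and a defining gene of oenocytes, is among the 53 missing loci. Its 0 is therefore not read as a low abundance. The paper reports Cyp4g1 as enriched in adult oenocytes, from values not used here. Its relative Cyp4g15 had 6.19. Cpr, the NADPH-cytochrome P450 reductase that serves Cyp4g1, had 3866. The mark was set on 19 loci of 1 stretch of chromosome X from 268509 to 470726, in which Cyp4g1 lies from 467057 to 469335.

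**Figure D3:**
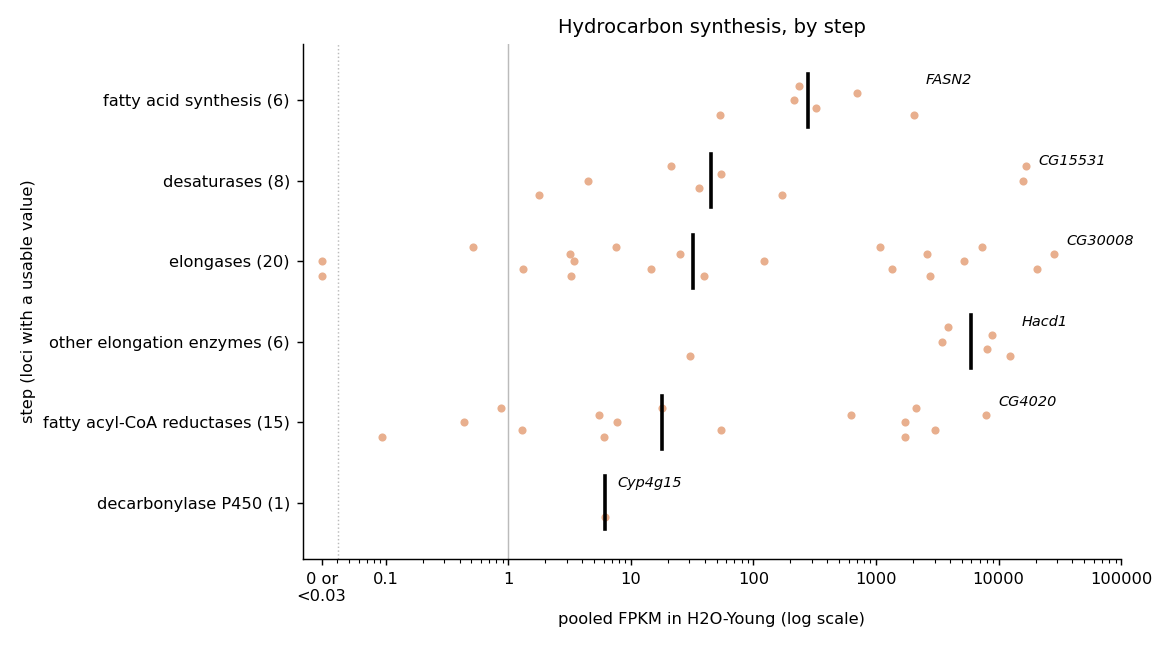
Each point is 1 locus of the hydrocarbon route, placed by its pooled FPKM in H2O-Young on a log axis, with 1 row per step, a black bar at the median and the highest gene named. Points at the left edge are listed at 0 or below 0.03. The other elongation enzymes have the highest median, 5963, while Cyp4g1 has no point because its value is missing.

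Fatty acids can also be burned. Mitochondrial fatty acid oxidation held 17 loci, all at an FPKM of at least 1 and 11 at 100 or more, with a median of 249. scu, a short-chain hydroxyacyl-CoA dehydrogenase, had 4950.3, Etfb and wal, the subunits of the electron transfer flavoprotein, had 677 and 664, and Mtpbeta, a subunit of the trifunctional protein, had 654. yip2, a thiolase, had 569 and Echs1, an enoyl-CoA hydratase, had 488. Peroxisomal beta-oxidation was lower, with a median of 30.2 over 15 loci. Its highest members were CG17597, a sterol carrier protein X thiolase, with 1225, CG9577 with 937 and Mfe2, the multifunctional enzyme, with 387, followed by Abcd3, a transporter of the peroxisomal membrane, with 149, ScpX with 121 and Acox3, an acyl-CoA oxidase, with 54.3.

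The peroxins, which build and fill peroxisomes, had a median of 58.8 over 14 loci. Pex19, a chaperone of membrane proteins, had 949.7, Pex2 had 299.8 at a shared locus, Pex13, a docking factor, had 158, and Pex5, the import receptor, had 147. Pex16 had 89.5 and Pex11c had 89.1. All of them were below Cat, the catalase that works inside peroxisomes, with 6127.

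Ketogenesis and the mevalonate pathway share their first steps, which start from acetyl-CoA. Hmgs, the HMG-CoA synthase, had 1253, and Acat1, the mitochondrial thiolase, had 235. Idi, the isopentenyl diphosphate isomerase, had 703, Acat2 had 84.4 and Mvk, the mevalonate kinase, had 46.5. Of the 12 loci, all reached an FPKM of at least 1 and 4 reached 100, not all of them named here. The median was 46.1.

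Among 34 loci of lipid droplets and lipid carriers, Acbp2 stood apart. fabp, a fatty acid binding protein, had 1932 at a locus shared with sea, and Acbp2 was 13.4 times as abundant. Lsd-2, a perilipin of lipid droplets, had 907, Acbp5 had 699, and the sterol-binding proteins Npc2a and Npc2g had 347 and 314. Acbp4 was listed at 0.

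The antioxidant enzymes made up 6.0% of the summed FPKM over 55 loci, but without the 10 highest loci, which include Sod1 and Mgstl, their share of the rest was 1.88%. After Sod1 came Gtpx, a glutathione peroxidase homologue, with 6371, Cat with 6127, the peroxiredoxin Prx5 with 4240.2 at a shared locus, Prx3 with 1061 and Prx2 with 928. Sod2, the manganese superoxide dismutase of mitochondria, had 737, which put Sod1 58.7 times above it, and Sod3, the secreted form, had 233. Both are named outside the rule of 6 members. Prx1 and Trxr2 were listed at 0, while 16 of the 18 loci of this list reached at least 1, with a median of 198.

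Glutathione S-transferases conjugate electrophiles to glutathione. Of 37 loci 34 reached an FPKM of at least 1, with a median of 51.7. GstO3, an omega-class enzyme, had 2205, GstD1 had 981, GstE9 had 760.0, GstE12 had 504 and GstT3 had 420.2. GstD6 was listed at 0. Mgstl was 14.0 times as abundant as GstO3, so the family was dominated by its membrane-bound member.

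The other detoxification families had lower medians. The cytochrome P450 list held 85 loci, of which Cyp4g1, the one that defines oenocytes, is missing, 67 reached at least 1 and only 2 reached 100. These were phtm and Cyp4d20, with 199 and 119.6. phtm is known for a step of ecdysone synthesis, as is sad, which had 68.8. Cyp4e1 had 85.1, Cyp6u1 had 51.7 at a shared locus and Cyp12e1 had 46.3. The median of the list was 2.96, against 5.31 over all protein-coding loci. UDP-glycosyltransferases, which add sugars to lipophilic compounds, were lower still, with a median of 0.765 over 35 loci, 14 of them at 1 or more. Their highest members were Ugt37D1 with 41.5, Ugt36E1 with 23.6 and Ugt301D1 with 19.0.

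Cytosolic ribosomal proteins were the largest group by share, with 18.4% of the summed FPKM. Of 91 loci 73 reached an FPKM of at least 1000, and the median was 3167. The large subunit had a median of 3342 over 52 loci and the small subunit one of 2771 over 39. RpL23 was the highest, and RpL8 with 7508 and RpS23 with 7706 were also among the leading members. Of the 91, 2 paralogues, RpL10Aa and RpS28a, were listed at 0. The 75 proteins of the mitochondrial ribosome had a median of 186. mRpS14 led them with 1323 at a shared locus, followed by mRpL52 with 790.2, mRpS6 with 718 and mRpL12 with 546.

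Translation factors had a median of 129 over 54 loci, below that of the ribosomal proteins. eIF2beta, a subunit of the factor that brings the initiator tRNA, had 3292, eEF1beta, the exchange factor of elongation, had 3078, eEF2, the translocase, had 1696, and pAbp, the poly(A) binding protein, had 1268. eEF5 had 1000.5 and eIF3m had 973. Of the family 5 members, eIF3d2, eIF3f2, eIF3g2, eIF4E7 and eIF4H2, were listed at 0. Aminoacyl-tRNA synthetases, which charge tRNAs, had a median of 29.8 over 32 loci, led by AsnRS with 281 and LysRS with 172.

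The proteasome held 8.12% of the summed FPKM in 47 loci. The proteasome is a barrel, the 20S core, whose alpha and beta rings hold the proteolytic sites, closed by the 19S cap that recognises and unfolds ubiquitinated proteins. The core carried 6.47% and the cap 1.65%. Of the 14 core subunits 12 reached an FPKM of at least 1000. Prosalpha2, Prosalpha7 and Prosalpha3 had 15986, 13528 and 12922, and Prosbeta7, Prosbeta4 and Prosbeta3 had 11628, 10120.3 and 9957.

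The catalytic subunits Prosbeta1, Prosbeta2 and Prosbeta5 had 8985, 7251 and 5680.5. The median of the core subunits was 8118, whereas that of the 18 subunits of the cap was 1187. In the cap Rpn13, a ubiquitin receptor, had 4242, Rpn12 had 3322, Rpn2, a scaffold, had 3151, and Rpt6, an ATPase of the base, had 2428. Rpn6 was the lowest of the cap with 239.9. Prosalpha4, with 496, was the lowest core subunit above 0, so the ranges of core and cap overlapped. The catalytic subunits, Rpn6 and Prosalpha4 were named after their values were seen.

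Prosalpha1 was the exception in the core, listed at 0 without the mark. The deposited table carries the gene at 2 loci of chromosome 2R with the same annotated position, and both are listed at 0. The part of this doubling in the value was not tested, so the 0 of Prosalpha1 does not stand for a low abundance.

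In the proteasome core, subunits other than Prosalpha1 lay far above their paralogues. Names that end in T or R mark proteasome genes that duplicate a subunit, several of them known from the testis. All 10 such paralogues of the core lay below an FPKM of 1, and 6 were listed at 0, namely Prosalpha3T, Prosalpha4T1, Prosalpha4T2, Prosbeta2R1, Prosbeta4R1 and Prosbeta5R1. The highest was Prosbeta4R2 with 0.398 at a shared locus. In the cap, Rpn12R was listed at 0 and Rpt3R, at a shared locus, was highest of 5 with 57.9. Of 25 paralogues of oxidative phosphorylation, 18 lay below 1, against 0 of 69 other members, and among the paralogues of the vacuolar ATPase 11 of 18 lay below 1. Ribosomal protein paralogues were less uniform: of 13 with a median of 86.5, 5 lay below 1 and 3 reached 1000. RpL24-like had 2815 beside 3772 for RpL24, RpS5b had 1157 beside 1400.3 for RpS5a, and RpS14b had 660.2 beside 1020.2 for RpS14a. Whether the genes of any of these pairs share reads was not tested. These pairs were named after their values were seen.

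**Figure D4:**
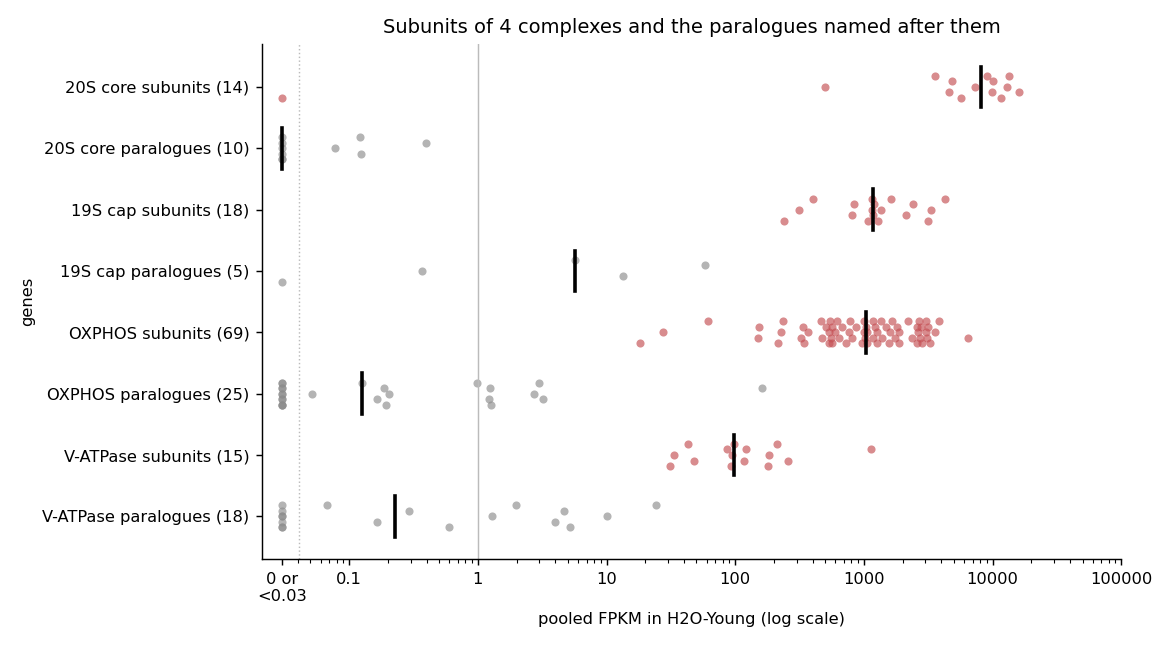
Points give the pooled FPKM of single genes in H2O-Young, on a log axis, for subunits (red) and for paralogues named after them (grey) of 4 complexes, with black bars at the medians. Points at the left edge are listed at 0 or below 0.03 and overlap. The median is 8118 for the subunits of the 20S core and 1187 for those of the 19S cap, and it is 0 for the paralogues of the core.

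The listed genes of oxidative phosphorylation, encoded in the nucleus, held 5.68% of the summed FPKM in 94 loci. The list leaves out levy, a subunit of complex IV at rank 57 with 5560, so no count, median or share of the list includes it. Excluding the paralogues, the 69 members had a median of 1034 and ran from ND-AGGG with 18.4 to ND-B12, a subunit of complex I, with 6399. Complex I had a median of 744 over 40 loci, and after ND-B12 came ND-MWFE with 2814 and ND-MLRQ with 2663, both at shared loci, and ND-30 with 1881. Complex II was lowest, with SdhC at 1732, SdhD at 637, SdhB at 336 and SdhA, its flavoprotein, at 61.4. ND-AGGG was named after its value was seen.

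Complex III was led by UQCR-C2, a core protein, with 3289.7, RFeSP, the Rieske protein, with 3030.3 and UQCR-14 with 3014. Among its listed genes, complex IV was led by COX5A with 3814, COX7B with 3540.1 and cype with 3172, all below levy. In the ATP synthase the small subunits ATPsynCF6 and ATPsynF had 3094 and 2789, ATPsyngamma had 2656 and ATPsynD had 2185. ATPsynbeta, which carries the catalytic sites and was named after its value was seen, had 228. Cyt-c-p, the somatic cytochrome c, had 153 and Cyt-c-d 0.205.

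Enzymes of central carbon metabolism were also present. Glycolysis had a median of 378 over 14 loci, with Ald1, the aldolase, at 1224, Eno, the enolase, at 1007, Gapdh1 at 846, Tpi at 821, Pgk at 799.9 and Gapdh2 at 418. Pglym87 was listed at 0. The TCA cycle list had a median of 88.3. Its highest members were Idh, the NADP-dependent isocitrate dehydrogenase, with 2164, and Mdh1, the cytosolic malate dehydrogenase, with 2014. Neither is the enzyme of the mitochondrial cycle. The mitochondrial Mdh2 had 531, and Idh3a, Idh3b and Idh3g, of the NAD-dependent isocitrate dehydrogenase, had 63.6, 35.1 and 21.0. The Idh3 genes were named after their values were seen. Amino acid metabolism had a median of 29.5 over 20 loci, led by Got2, an aspartate aminotransferase, with 367, and by the one-carbon enzymes Shmt, Ahcy and Gnmt with 353, 348 and 348.

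Genes of metals and of protein folding followed. Ferritin subunits Fer1HCH and Fer2LCH had 1423 and 742, MtnA, a metallothionein, had 584, and Tsf1, transferrin, had 149, while Mco3 was listed at 0. In the endoplasmic reticulum, the entry and folding list had a median of 125 over 17 loci. Tapdelta, a subunit of the translocon-associated protein complex, had 3186, Calr, calreticulin, had 916, Sec61beta, a subunit of the translocon, had 657, and SsRbeta had 535.

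Among chaperones Hsc70-4, the constitutive cytosolic Hsp70, had 864, CG11267, the mitochondrial Hsp10, had 813, Hsp83, the fly Hsp90, had 405 and Hsp60A had 347. The inducible Hsp70 genes were at or near 0. Hsp70Ab, Hsp70Ba and Hsp70Bbb were listed at 0, but these copies are nearly identical and their reads cannot be assigned with certainty. Of 10 small heat shock proteins 5 reached 100, with Hsp26 at 599.6, Hsp27 at 521, Hsp22 at 253 at a shared locus and Hsp23 at 138.

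The vacuolar ATPase, which acidifies lysosomes, was led by Vha13 with 1126 and Vha14-1 with 256. The autophagy list had a median of 29.6 over 21 loci. ref(2)P, the p62 receptor of ubiquitinated cargo, had 342, Atg10 had 125 at a shared locus, and Atg8a, which coats autophagosomes, had 85.7. Autophagy RNAs were thus far below those of the proteasome. Structural genes were led by alphaTub84B, a tubulin, with 1535, betaTub56D with 933 and the polyubiquitin gene Ubi-p63E with 795.

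The listed genes of insulin, FOXO and TOR signaling were low with a pair of exceptions. ImpL2, a secreted protein that binds insulin-like peptides, had 4376 and stood at rank 72, and Thor, the 4E-BP that restrains cap-dependent translation, had 1070.4. The other 16 loci of insulin, FOXO and TOR signaling lay below 100, with S6k at 99.5, raptor at 60.8 and sgg at 38.5, both at shared loci, and Tsc1 at 19.2. The median of that list was 9.10.

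Nuclear receptors had a median of 3.25 over 20 usable loci. ERR, a regulator of carbohydrate and energy metabolism, had 506, Hnf4, which drives lipid catabolism and hydrocarbon genes, had 112, ftz-f1 had 104 at a shared locus and svp had 62.9. Eip75B and Hr96 had 17.8 and 17.2. Hr51 and Hr83 were listed at 0, and Hr78 is missing. The 10 genes of the circadian clock all reached an FPKM of at least 1 and none reached 100, with dco at 68.8, cyc at 49.1, jet at 46.0 and cry at 34.4.

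Immune genes were present, in flies given no infection. Of 20 antimicrobial peptide genes 17 reached an FPKM of at least 1, with a median of 13.8. Drs, drosomycin, had 1063, Mtk, metchnikowin, had 579.9, Drsl5 had 189.7 and DptB, a diptericin, had 129.6. CecB, Drsl1 and Drsl6 were listed at 0. Bomanins, short peptides that act downstream of Toll, had a median of 204 over 12 loci, with BomS6 at 1203, BomS3 at 839.6 and BomS5 at 506.

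Receptors and signaling parts of the immune pathways were measured too. In the peptidoglycan recognition and Imd list the median was 34.7, with Dredd, a caspase, at 443 at a shared locus, PGRP-LC, the receptor of Imd, at 418 and PGRP-LB, an amidase, at 180.5. PGRP-SB2 was listed at 0. In the Toll pathway the median was 18.4, and cact, the inhibitor of the NF-kappaB factors, was highest with 105.

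Families of the senses were at the bottom of the table. Of 59 usable odorant receptor loci 30 were listed at 0 and 5 reached an FPKM of at least 1, the highest being Or42a with 2.41 and the co-receptor Orco with 2.04. Of 55 loci of gustatory receptors 29 were listed at 0, and the highest, Gr47b with 59.5, is shared with san. Gr43a, a fructose receptor that also acts inside the body, had 18.9. Of 58 ionotropic receptors 29 were listed at 0, and the highest, Ir25a with 28.1, is shared with tank.

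Odorant-binding proteins differed from the receptors. Of 48 loci 24 reached at least 1 and 3 reached 100, namely Obp99c with 555, Obp19d with 385 and Obp99a with 289.7. Cuticular proteins of the Cpr family had a median of 1.21 over 69 loci, led by Cpr49Ab with 119 and Cpr65Au with 73.1.

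Histone genes fell into a class with values and a class listed at 0. Replacement histones, whose mRNAs carry poly(A) tails, were present, with His3.3A at 1453, His4r at 1139, His2Av at 249 and His3.3B at 120.1. Of the 30 loci 24 were listed at 0, and these are copies of the replication-dependent genes, whose mRNAs lack such a tail and whose sequences are nearly identical. The parts of poly(A) selection and of multiple mapping in these zeros were not tested.

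Marker genes of oenocytes and of other tissues were read next. The oenocyte list had a median of 1876 over 12 usable loci, of which 11 reached 100 and 8 reached 1000. In order they were CG30008, spidey, Cpr, FarO, CG18609, FASN2, Sgp and Hmgs, then FASN3 with 694, Desat1 with 172, Hnf4 with 112 and svp, a nuclear receptor of the oenocyte lineage, with 62.9. Cyp4g1 is missing. The median of this list was above that of each other marker list, but the lists hold different genes, and many of its genes are also hydrocarbon synthesis genes. The paper reports FarO, spidey, Cpr, CG18609 and Hmgs as enriched in this same H2O-Young group over whole body. The high median is therefore no independent test of the tissue label.

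Markers of other tissues were present at levels that differed between tissues. Of 20 genes of follicle cells and the eggshell all reached an FPKM of at least 1 and 7 reached 1000, with a median of 129.7. The chorion genes Cp18 and Cp15 had 3190.1 and 2503, and Vm34Ca, a vitelline membrane gene, had 2780.5. The fat body list had a median of 3.26. In it Yp2, Yp1 and Yp3, yolk protein genes that follicle cells also express, had 14515, 6020.3 and 899. The rest of that list was low, with Lsp1beta at 17.4, while Fbp1 and Lsp1alpha were listed at 0.

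Midgut proteases were present too. Of the 12 midgut markers 10 reached at least 1, with alphaTry at 4883, Jon65Aiv at 2309.8 and betaTry at 1615, and all 26 loci of Jonah and trypsin proteases reached at least 1, with a median of 54.8. The list adds Jon65Aiii with 1739, Jon99Cii with 820.4 and epsilonTry with 481. The median of the midgut markers was 153, although lab and esg, transcription factors of the gut, had 0.0716 and 0.107, and were named after their values were seen.

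Markers of 4 further tissues were also detected. Photoreceptor markers were led by ninaE, the main rhodopsin, with 238, Arr2 with 180.0 and Arr1 with 76.8, over a median of 22.9. Germline markers had a median of 21.3, with osk at 207, bgcn at 128 and BicC at 86.7, the last pair at shared loci. Muscle markers had one of 19.5, with Tm1 at 416, Mlp60A at 209 and up at 161. Malpighian tubule markers were led by Prip with 155.7, Drip with 15.3 and Nha1 with 14.4.

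Neuronal and hemocyte markers were lower, with medians of 2.65 and 0.90. ChAT at 28.5, shared with VAChT, Rdl at 23.6 and nSyb at 7.91 led the neurons, and Ilp2, an insulin-like peptide of the brain that was named after its value was seen, had 2.65. PPO2, Pxn and PPO1 led the hemocytes with 15.0, 6.08 and 3.35, and He was listed at 0. Send1 and Send2, of the spermatheca, had 4.42 and 0.288.

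Male genes gave a check of sex. Of 14 male-only genes 9 were listed at 0, among them SP, Acp26Aa, Mst57Da, Mst57Db, Mst84Da, Mst84Db, Mst84Dd, ProtA and ProtB. The highest were Mst87F with 5.63, Mst84Dc with 2.87 and lncRNA:roX1 with 1.87. All 56 usable loci of chromosome Y were listed at 0. The part that RNA of other tissues had in any value of the oenocyte table was not tested, since no input library or pulldown without the tag was analysed here. The paper reports that control pulldowns, lacking either the tag or the antibody, gave no detectable RNA. By qRT-PCR it also reports desat1-E above the input and Ilp2 (there Dilp2) far below head samples.

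**Figure D5:**
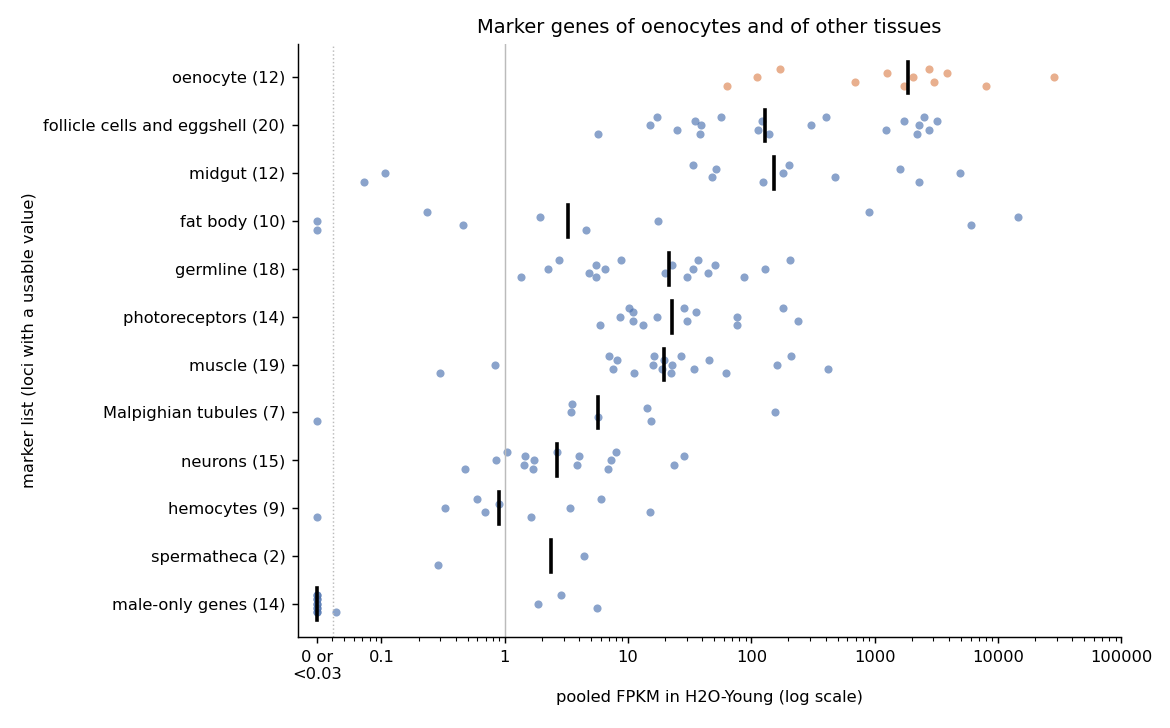
Each point is 1 marker gene, placed by its pooled FPKM in H2O-Young on a log axis, with 1 row per tissue, the number of usable loci in brackets and a black bar at the median. Points at the left edge are listed at 0 or below 0.03 and overlap. The oenocyte list has a median of 1876, follicle cell and midgut lists have 129.7 and 153, and the male-only list has 0.

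Noncoding loci made up 2.61% of the summed FPKM. Of 2867 usable ones 450 reached an FPKM of at least 1 and 37 reached 100. The highest, lncRNA:CR43196 on 3R from 17382129 to 17382767, lies within lute on the opposite strand and within Brf on its own strand. lute had 15.2 and Brf, a transcription factor of RNA polymerase III, had 9.35. asRNA:CR44431, with 6878, lies wholly opposite to Mgstl, and lncRNA:CR40469 on chromosome X had 2743. lncRNA:CR34335 had 1599, asRNA:CR45818, opposite to Cdc37, had 1581, lncRNA:CR44688 had 1221 and asRNA:CR45943 had 1105.

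The next noncoding loci were snoRNA:Me28S-A1322 with 1181, inside eEF1alpha1, and mir-4968 with 1066, inside Mob2, followed by a locus without a symbol. Transcripts of 73 to 543 nucleotides were thus among the leading noncoding loci with symbols. Since strand use is not given in the sources used here, reads of Mgstl, which was 4.48 times as abundant as its antisense locus, cannot be told apart from antisense reads there.

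The 53 missing loci, 28 coding and 25 noncoding, were treated as unknown. On the X chromosome they were y, which is needed for black pigment, the proneural genes ac, sc, l(1)sc and ase, ewg, Or1a, Pgcl, CG12470, CG43182, CG13375, CG32816, the locus of CG3777 and CG43181, lncRNA:yar, lncRNA:CR44751, lncRNA:CR44752, lncRNA:CR44753, mir-980 and Cyp4g1. On chromosome 2L they were CG15403, CG42830, mir-4972, Msp300, a giant protein that positions nuclei, and a pair of small RNAs of which 1 is snoRNA:Psi18S-525k. On 2R they were CG43272, CG18469, lncRNA:CR45997, lncRNA:CR46235, lncRNA:CR43660 and lncRNA:CR43661.

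On 3L the missing loci were snRNA:U7, lncRNA:CR46031, CG9592, CG9692, asRNA:CR43933, Est-Q, lncRNA:CR45159 and the locus of Glg1 with Hr78. On 3R they were Pzl, lncRNA:CR46123, lncRNA:CR45220, lncRNA:CR44236 and lncRNA:CR46118. The rest were 5 loci of ribosomal RNA on an unplaced contig and the Y-linked genes kl-5, Ppr-Y, WDY and ORY. The mark was set on a further 34 loci in some comparison of groups, yet these kept a value in H2O-Young, with Ag5r the highest at 433. Some of them share a stretch with missing loci, such as mbl with 32.7 on 2R, whose stretch holds 6 missing loci. Which group of a comparison set the mark cannot be told, so some zeros of missing loci may be values of H2O-Young.

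Among the detected loci, shorter transcripts tended to have a higher FPKM. FPKM itself divides by length, so its correlation with length is not independent of that scaling. Over 9303 loci with an FPKM of at least 1, log2(FPKM + 1) and the log2 length of the longest annotated transcript were correlated with r = -0.24 (Pearson) and rho = -0.23 (Spearman), as a description across loci that share their libraries. Over all 16011 loci with a length, low and absent ones included, r was 0.17, so the sign holds for detected loci only. The 100 highest loci had a median transcript length of 946.5 nucleotides, against 1852 for all loci with an FPKM of at least 1. Loci of 750 nucleotides to under 1000 had a median FPKM of 41.4, the highest of the 9 length classes, and those of 5000 or more had 8.37. FASN2, with a transcript of 8161 nucleotides, was an exception among the abundant lipid genes and a rank of 178 by FPKM.

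On the chromosome arms, from 50.6% of the loci on 2L to 65.6% on X reached an FPKM of at least 1. Of the 100 highest loci 31 lie on 3R, among them CG9458 and CG15531, 26 on 2R, 19 on 3L, 13 on X, 11 on 2L and 0 on chromosome 4, where RpS3A was highest with 795. The usable loci numbered 3851 on 3R, 3216 on 2R, 3199 on 3L, 2451 on X, 3205 on 2L and 104 on chromosome 4.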

How the data were processed

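RiboTag RNA-seq was deposited for 12 libraries in 4 groups, and the 3 libraries of H2O-Young, labelled rep1 to rep3, were described. Per the paper's methods, the authors aligned reads to dm6 with TopHat2, assembled and merged transcripts with Cufflinks with bias correction, and ran Cuffdiff. The deposited table holds 1 group FPKM per locus, over pooled libraries. Depth per library is unknown from it. Its columns of fold changes, test statistics, p-values and q-values for pairs of groups were not used.

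The same FPKM stood in each of the 3 pairs that hold the group. Symbols and positions came from the BDGP6 annotation of the dm6 assembly, and 99.3% of 30550 transcript accessions matched. A symbol at several loci took the highest. Length is that of the longest annotated transcript at a locus, of any of its genes. Shares are of the summed FPKM over usable loci. With 1 pooled value per locus no test was run and no spread between replicates can be read from the table. Calculations ran in Python 3.11.15 and figures in matplotlib 3.10.9, and the functions were tested on simulated data.

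Named were the 30 highest loci, up to 6 of the highest members of each list, every missing locus, all oenocyte markers, the 3 highest markers of other tissues with those listed at 0, RpL13A, and the 10 highest CG-numbered and noncoding loci. Members and lists were chosen with earlier results of these data known. Alternatives left out loci by class, length, sharing or rank, or changed the FPKM minimum, the pseudocount of 1 or the length scaling. SdhDL and cup, members of the lists without a match, were not analysed here.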

Additional observations from a re-analysis of the deposited data

How the results depend on the processing

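All shares below are of summed FPKM. With protein-coding loci only, the 10 highest loci held 13.7% and the 100 highest 46.4%, and ribosomal proteins held 18.9%, oxidative phosphorylation 5.83%, hydrocarbon synthesis 9.68% and antioxidant enzymes 6.16%. With loci of 1 gene symbol only, the same shares were 14.4%, 48.2%, 17.8%, 5.31%, 9.58% and 6.21%. Without transcripts under 500 nucleotides they were 13.9%, 47.4%, 19.0%, 5.71%, 10.4% and 6.63%. With FPKM multiplied by the longest annotated transcript of the locus they were 12.2%, 40.7%, 13.7%, 4.55%, 10.0% and 4.38%. Without the 10 highest loci the next 100 held 39.9%, and the groups held 21.3%, 6.55%, 5.33% and 1.88%. With only loci of at least 1 FPKM, hydrocarbon synthesis held 9.43%. A minimum of 10 left 5650 loci, and the number holding 50% of the sum ranged from 110 to 167. The correlation of log2 FPKM with length was -0.23 with a pseudocount of 0.01 and -0.30 over protein-coding loci, and it was 0.17 with no filter on low values. Those shifts follow from which loci enter the sum or the correlation, or from how they are weighted.

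No paired analysis was possible because the deposited table pools the 3 libraries of the group into 1 value, and leaving out each replicate was not run for the same reason. Without values per library there is no replicate spread, depth or detection limit, and neighbours in the ranking are not shown to differ. A value of 0 gives no upper limit.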

Other observations

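Enzymes of heme synthesis, a list put together after the values were seen, were abundant at some steps and low at others. Urod, the uroporphyrinogen decarboxylase, had an FPKM of 6439, and Alas, which makes the first precursor, had 4329. FeCH, the ferrochelatase that inserts iron, had 960.0, whereas Coprox had 124, Ppox 74.5 and Pbgs 47.2. Uros1 and Uros2, uroporphyrinogen synthases, had 4.95 and 1.40. Catalase and the cytochromes P450 carry heme, and no relation between the lists was tested.

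All 9 loci of a list of NADPH sources and the pentose phosphate pathway, also put together after the values were seen, reached an FPKM of at least 100, with a median of 819. Taldo, the transaldolase, led with 3808, then came Idh with 2164, Rpi with 1384 and Rpe with 1379. Men, the malic enzyme, had 576, Pgd had 429 and Zw, the glucose-6-phosphate dehydrogenase, had 189. In a list of mitochondrial import, chosen in the same way, Tom7, a small subunit of the outer-membrane translocase, had 6456, while Tim10 had 287, Tom20 284, Tom70 38.5 and Tom40, the channel, 23.3.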
